A study of Mus musculus with 2 samples.

Results

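Toll-like receptors carry a cytoplasmic domain that recruits adaptor proteins, and the adaptors recruit kinases. Through MyD88 and its bridge TIRAP the signal passes to the IRAK kinases and the ubiquitin ligase TRAF6 and then to NF-κB, which drives inflammatory genes such as that of interleukin-1β. Through TRIF and its bridge TRAM it passes to TBK1 and IKKε, a pair of kinases that phosphorylate the factors IRF3 and IRF7 and so switch on interferon genes. Neutrophils use the MyD88 route when they meet bacterial products and interleukin-1, and TBK1 and IKKε also serve the cytosolic sensors of RNA and DNA.

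The 10 genes of this relay were taken by name. No measured value entered the rule, but earlier results of these data were known when the genes were chosen. They were the adaptors Myd88, Tirap, Ticam1 (TRIF) and Ticam2 (TRAM), the kinases Irak4, Irak1 and Irak2, the ligase Traf6, and the kinases Tbk1 and Ikbke (IKKε). All 10 were among the 35522 features of both expression tables. The libraries came from bone marrow neutrophils, sorted as CD11b+ cells with high Ly-6G and low or no Ly-6C, and kept in culture with GM-CSF at 10 ng/ml, a myeloid growth factor that both groups received. PBS or tumor exosomes at 20 μg/ml were added for 3 days, and the exosomes were vesicles from stem-like spheres of CT26, a murine colon carcinoma line. Immune cells came from Balb/C mice, 5 to 8 weeks of age by the study's methods, and whether animals were pooled for a library is not given in the sources used here. Each group is 1 library, so no difference below has a replicate check and no test was made. Values are RPKM, read numbers scaled by the length of the gene's exons and by the mapped reads of the library, and can be compared between genes. A gene was kept at an RPKM of at least 0.25 in both libraries and called up where its exosome value was at least 2 times its PBS value, or down where it was at most 0.5 times that value.

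The depth was about 66.0 M mapped reads (M for mega) for PBS and 79.1 M for exosomes, as estimated from the values of the rarest features. At this depth the members rested on about 189 (Ticam2, PBS) to 50919 (Ikbke, exosome) estimated reads. These numbers take the longest coding transcript as the length of each gene, and the length behind the deposited RPKM is not given. For Ikbke the transcript has 3251 bases and all annotated exons together 9018, so the read numbers and their intervals are approximate. The intervals given below are 95% Clopper-Pearson counting intervals of these reads. They leave out all variation between cultures, mice and libraries.

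Ikbke and Ticam2 were the members that rose, each by about 10-fold, and the other 8 were within 2-fold. Ikbke stood at 19.6 RPKM in PBS-treated and 198 RPKM in exosome-treated neutrophils. Ticam2 stood at 0.68 and 6.77 RPKM. Thus 2 of 10 members (20.0%) were called up, against 31.5% of the 9698 genes kept, and 0 were called down, against 5.62%. The share of members up was therefore not above that of all genes. The median log2 fold change was 0.18 over the members and 0.53 over all genes kept. With that median removed from every value, 16.8% of all genes were up and 13.2% down, and Ikbke and Ticam2 were still the members up, while Tirap was down.

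**Figure D1:**
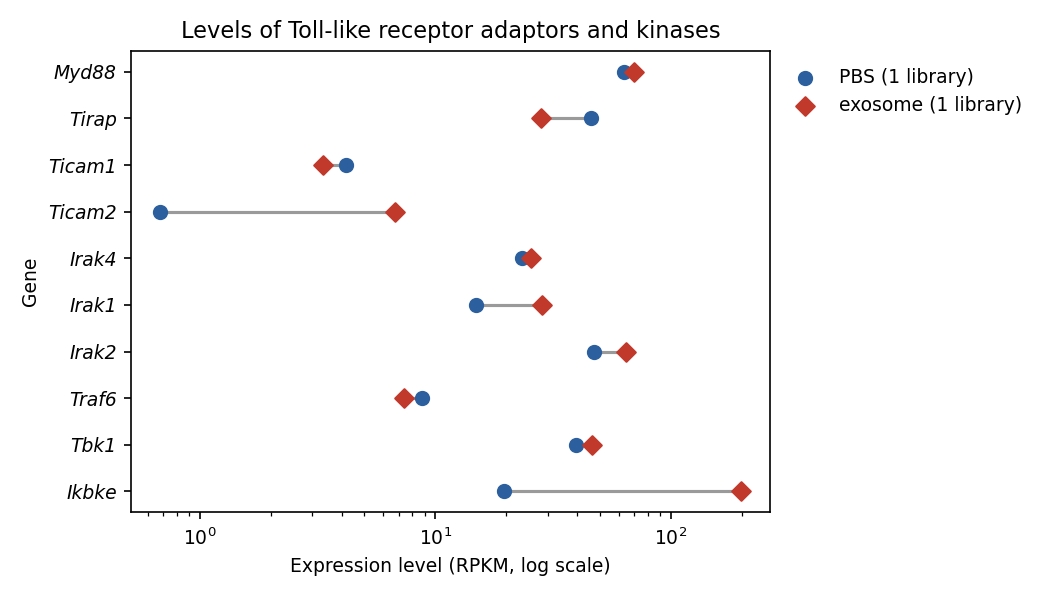
RPKM (log scale) of each of the 10 genes in the PBS library (circles) and the exosome library (diamonds), joined by a line. Ikbke and Ticam2 have the longest lines, from 19.6 to 198 RPKM and from 0.68 to 6.77 RPKM, while Myd88, Irak4 and Tbk1 have nearly overlapping symbols.

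The adaptors split in direction and differed widely in level. Myd88, the adaptor shared by most Toll-like receptors and by the interleukin-1 receptor family, was the highest member in PBS at 63.3 RPKM and stood at 70.0 RPKM with exosomes. Its log2 fold change was 0.14 (counting interval 0.10 to 0.19), and the gene lay above 94.5% of all detected features in PBS and above 94.9% with exosomes. Myd88 transcripts were thus abundant in both cultures and nearly level between them.

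Tirap, which carries MyD88 to the receptors TLR2 and TLR4 at the plasma membrane, stood at 45.9 RPKM in PBS and 28.2 RPKM with exosomes. The log2 fold change of -0.70 (counting interval -0.74 to -0.66) was the lowest of the 10 genes and did not reach the 2-fold limit. It exceeded the values of 9.38% of the genes kept.

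Ticam1, the adaptor through which TLR3 and internalised TLR4 signal, was low in both libraries, at 4.16 and 3.32 RPKM. Its log2 fold change was -0.33 (counting interval -0.47 to -0.18). Ticam2, which bridges TLR4 to TRIF in endosomes, was the lowest member in PBS, at 0.68 RPKM or about 189 estimated reads. With exosomes it reached 6.77 RPKM, above Ticam1. Its level was thus 9.96 times higher, a log2 fold change of 3.32 (counting interval 3.10 to 3.54) that 77 of the genes kept exceeded. Genes of a similar level (geometric mean of both libraries from 1 to 5 RPKM) had a median log2 fold change of 0.99, and 49.8% of them were up. Ticam2 exceeded 98.5% of these genes.

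The value of Ticam2 has a limit set by its position. On the same strand, 838 of its annotated exon bases (14.5%) also belong to Tmed7, a gene of vesicle transport in the early secretory pathway, which stood at 27.0 RPKM in PBS and 45.6 RPKM with exosomes. Tmed7 had a log2 fold change of 0.76, against 3.32 for Ticam2. How reads on shared bases were assigned is not given in the sources used here, and their part in the Ticam2 value was not tested. Exon overlaps with genes on the opposite strand were found for 5 members, and whether the counting used strand is not stated. Myd88 shared 290 bases with Acaa1a, Irak4 395 with Twf1, Tirap 446 with Gm39318 and 39 with Srpr, and Irak2 196 with Gm43963. Ikbke shared 159 bases with Gm28914 and 65 with Gm28913, which are 1.76% and 0.721% of its exon bases.

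Of the IRAK kinases, Irak1 came nearest to the limit for a call. Irak4, the kinase that MyD88 recruits first and that phosphorylates the others, stood at 23.4 and 25.5 RPKM, a log2 fold change of 0.13 (counting interval 0.08 to 0.18). Irak1, its substrate, whose gene lies at chrX:74013914-74023918, stood at 14.9 RPKM in PBS and 28.4 RPKM with exosomes. This is a ratio of 1.90, and the counting interval of 1.83 to 1.97 ended below 2. Irak2, the family member that sustains late TLR signalling, stood at 47.3 and 64.8 RPKM, a log2 fold change of 0.45 that was close to the median of all genes. It was the second most abundant member in PBS. All 3 IRAK kinases had higher values with exosomes, and none passed the 2-fold limit.

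Traf6, the ubiquitin ligase that receives the signal from the IRAK kinases, stood at 8.82 RPKM in PBS and 7.35 RPKM with exosomes, and its log2 fold change was -0.26 (counting interval -0.33 to -0.20). Among genes of a geometric mean from 5 to 10 RPKM the median was 0.63, so Traf6 lay below most genes of its level, as did Ticam1 at its own level and Tirap at its own.

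The 2 IKK-related kinases changed unequally. Tbk1, which is the more broadly expressed of the pair and phosphorylates IRF3, stood at 39.8 RPKM in PBS and 46.3 RPKM with exosomes (log2 fold change 0.22, counting interval 0.18 to 0.26). Ikbke, an inducible kinase whose gene lies at chr1:131254343-131279606 (GRCm38), had a log2 fold change of 3.34 (counting interval 3.29 to 3.38), a ratio of 10.1. It moved from sixth to first place among the members, from 7.31% to 41.4% of their summed RPKM. Without it the summed RPKM of the other 9 genes was 248 in PBS and 281 with exosomes. Of the 1057 genes with a geometric mean of at least 50 RPKM, where the median log2 fold change was 0.02 and 10.8% were up, Ikbke exceeded 99.6%. Over all genes kept, 74 had a larger log2 fold change.

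**Figure D2:**
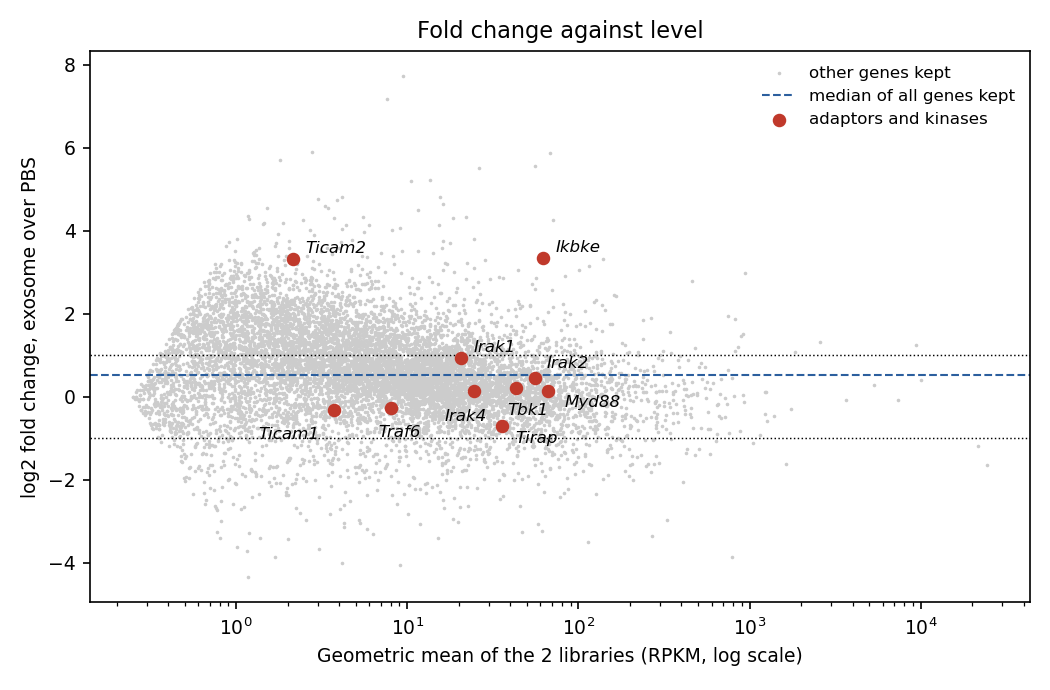
log2 fold change of exosome over PBS (vertical) against the geometric mean RPKM of both libraries (horizontal, log scale) for the 9698 genes kept, with the 10 adaptors and kinases in red, the 2-fold limits dotted and the median of all genes (0.53) dashed. Ikbke stands far above the genes of its level, Ticam2 lies at the upper edge of a region where many low genes were higher with exosomes, and the other 8 lie between the dotted lines.

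Because the deposited values are not centred between the libraries, ratios between members were also read within each library, where any scaling cancels. Ikbke RPKM was 0.493 times that of Tbk1 in PBS and 4.28 times that of Tbk1 with exosomes. The log2 ratio thus differed by 3.12 (exosome minus PBS, 95% counting interval 3.06 to 3.18 by a normal approximation on the log scale). Ticam2 RPKM was 0.163 times that of Ticam1 in PBS and 2.04 times with exosomes, a difference of 3.64 in log2 (3.38 to 3.90). In both pairs the order of the genes was opposite in the 2 libraries.

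The MyD88 side shifted less. Tirap RPKM was 0.724 times that of Myd88 in PBS and 0.403 times with exosomes, a log2 difference of -0.85 (counting interval -0.90 to -0.79). Irak1 was below Irak4 in PBS, at 0.639 times its RPKM, and above it with exosomes, at 1.11 times. Irak2 exceeded Irak1 by 3.17 times in PBS and by 2.28 times with exosomes. Myd88 exceeded Ticam1 by 15.2 and 21.1 times, so the adaptor of the MyD88 route was far above that of the TRIF route in both cultures. Such ratios show that 2 genes changed unequally and do not show which of them changed.

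**Figure D3:**
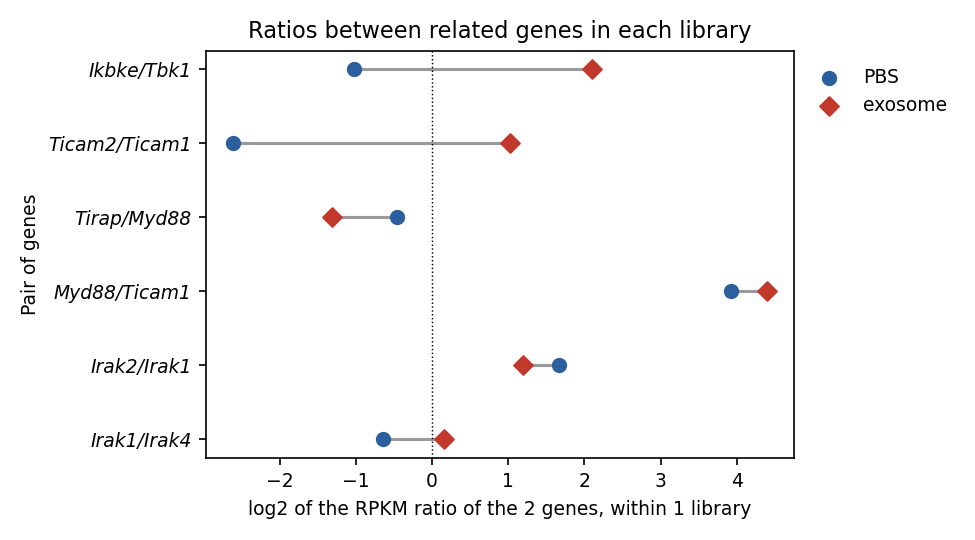
log2 of the RPKM ratio between 2 related genes within the PBS library (circles) and within the exosome library (diamonds) for 6 pairs, with a dotted line at equal levels. Ikbke/Tbk1 and Ticam2/Ticam1 cross from below to above the line by 3.12 and 3.64 log2 units, and Irak1/Irak4 crosses it by 0.80.

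To show what lies upstream of 2 related kinases that changed unequally, the bases before the annotated start of Ikbke and Tbk1 are given from RefSeq (GRCm38.p6), in the direction of the gene and cut where an annotated exon begins. Myd88 is added because its window alone held an interferon-type element. The start used for Myd88 lies inside the span of longer annotated transcripts (chr9:119335934-119341411), so its stretch is upstream of one start and intronic to others. Capitals mark matches to the motifs named below.
Ikbke, chr1:131279607-131279813, minus strand, bases -250 to -44 from the start site: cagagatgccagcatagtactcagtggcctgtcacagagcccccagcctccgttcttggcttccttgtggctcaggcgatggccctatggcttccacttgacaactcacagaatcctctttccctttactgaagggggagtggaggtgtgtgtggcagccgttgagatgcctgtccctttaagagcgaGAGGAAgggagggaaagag
Tbk1, chr10:121586795-121587044, minus strand, bases -250 to -1: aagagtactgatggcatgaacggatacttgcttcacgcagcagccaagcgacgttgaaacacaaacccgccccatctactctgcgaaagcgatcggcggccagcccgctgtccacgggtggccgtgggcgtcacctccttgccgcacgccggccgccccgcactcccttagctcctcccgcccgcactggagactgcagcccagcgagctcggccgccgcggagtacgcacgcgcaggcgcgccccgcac
Myd88, chr9:119340042-119340268, minus strand, bases -250 to -24: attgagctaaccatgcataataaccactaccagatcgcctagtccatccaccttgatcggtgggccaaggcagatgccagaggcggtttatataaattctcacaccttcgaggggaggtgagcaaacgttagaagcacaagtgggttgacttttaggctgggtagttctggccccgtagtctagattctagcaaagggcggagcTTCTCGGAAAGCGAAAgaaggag

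The Tbk1 stretch was the richest in G and C, at 68.4%, against 56.0% for Ikbke and 50.2% for Myd88. Windows from 250 bases before to 50 bases after the start were present for 9 members (not for Ticam2) and were searched on both strands for 6 motifs. A match to the purine-rich core of PU.1, the master factor of myeloid cells (GAGGAA), was found for Ikbke, Traf6 and Ticam1, and 28.3% of all 32851 windows hold it. An AP-1 match (TGANTCA) covered bases -6 to 1 of Ikbke (7.81% of all windows), outside the stretch printed. In the Myd88 window the core of an interferon-stimulated response element (GAAANNGAAA, 3.44% of all windows) overlapped a match to a STAT site (TTCNNNGAA, 8.30%). The κB consensus was matched in Irak1 alone (8.46% of all windows), and the cyclic AMP element TGACGTCA (1.79%) in no member. A match is a string of letters only, not a bound site, and Tbk1, Irak2, Irak4 and Tirap had none of the 6 in these windows.

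The transcripts of Irak1 and Traf6 are textbook targets of miR-146a-5p, an inhibitor of this pathway that the study followed in its exosomes and in neutrophils, and their sites are shown for that reason. The mature miRNA from RefSeq is given with its seed (bases 2 to 8) in capitals, and each site with the bases that pair with the seed in capitals.
miR-146a-5p: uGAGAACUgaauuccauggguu
Irak1, bases 40 to 46 after the stop codon: agactcagaggtcaaAGTTCTCa
Irak1, bases 56 to 62: gttctcatgcttggaAGTTCTCa
Traf6, bases 460 to 466: accgctctggtgttgAGTTCTCa
Traf6, bases 524 to 530: tccctggaaggcttaAGTTCTCa

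In the longest annotated transcript end after the stop codon, 4 of the 10 members held such a match, against 12.4% of the genes kept with an annotated end. Traf6 held 4 matches in 4170 bases, Irak1 2 in 1526, Irak2 2 in 1246 and Tirap 2 in 3360, so the ends differed in length as well. Log2 fold changes of these 4 genes lay on both sides of 0, from -0.70 for Tirap to 0.93 for Irak1. Mature miRNAs are not captured by mRNA libraries, and the level of miR-146a-5p was not analysed here. By RT-qPCR, the study reports a higher level of it in neutrophils given these exosomes. It also reports that an antagomir against this miRNA did not alter neutrophil survival.

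The genes around the relay were described by fixed lists. Of the list genes named below, Tlr1, Tlr5, Cd180, Ecsit, Irf7, Irak3, Tnip1, Il12a, Ifit1, Ifit2, Ifit3 and Isg15 were named by a rule of size, and all others were named after their values were seen. Of 25 receptors and accessory proteins, 20 were kept, 5 were up and 1 was down, and their median log2 fold change was 0.58. The 25.0% up and 5.0% down stand beside 31.5% and 5.62% of all genes kept, and with so few genes no difference is read from them. Tlr1 rose from 6.56 to 36.9 RPKM and Cd180, a receptor relative of TLR4, from 2.58 to 13.0 RPKM, whereas Tlr5, the flagellin receptor, fell from 18.4 to 3.57 RPKM. Tlr9, Tlr7 and Il18r1 rose 3.22-fold, 2.35-fold and 2.44-fold. Tlr7 and Il18r1, at log2 fold changes of 1.23 and 1.29, would not pass the limit with the median of all genes removed. Tlr4, which uses all 4 adaptors, was within 2-fold at 34.5 and 21.7 RPKM, as was Tlr2, which uses Tirap and Myd88, at 123 and 114 RPKM. Under the same removal Tlr4, at a log2 fold change of -0.67, would pass the limit downward. Tlr3, which signals through Ticam1, was at 0.0035 and 0.06 RPKM and was not kept. Il1r1, the interleukin-1 receptor that uses Myd88, was at 0.10 and 0.11 RPKM and was not kept either.

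Between TRAF6 and NF-κB, 16 of 17 listed genes were kept, with a median of 0.47. Of these, 3 were up (18.8%, against 31.5% of all genes) and 1 was down (6.25%, against 5.62%), again too few to read a difference. Ecsit, which encodes an adaptor linked to TRAF6, rose from 0.36 to 2.23 RPKM. Map3k8 and Map3k7 (TAK1, the kinase that TRAF6 activates) rose 2.56-fold and 2.53-fold, and Ikbkg, which encodes the regulatory subunit NEMO of the IKK complex, fell from 47.4 to 16.7 RPKM. Map3k8 and Map3k7, at log2 fold changes of 1.36 and 1.34, would not pass the limit with the median of all genes removed. The classical IKK kinases Chuk and Ikbkb stood at 11.7 and 15.6 RPKM in PBS and at 21.2 and 23.2 RPKM with exosomes, so that of the 4 kinases of the IKK family Ikbke alone passed the limit.

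All 12 genes listed for the TBK1 arm were kept, 2 were up and 2 were down (16.7% each, against 31.5% and 5.62% of all genes), and the median was 0.32. Irf7, the interferon regulatory factor that TBK1 and IKKε phosphorylate, rose from 22.6 to 136 RPKM, a ratio of 6.04. Irf3, the other substrate, was within 2-fold at 17.4 and 24.8 RPKM. Mavs, the mitochondrial adaptor of cytosolic RNA sensing, stood at 0.61 RPKM in PBS and rose to 1.38 RPKM. Its log2 fold change of 1.18 would not pass the limit with the median of all genes removed. The genes that fell were Tbkbp1 (from 45.6 to 18.6 RPKM) and Optn (from 19.9 to 9.56 RPKM).

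Of 14 listed inhibitors, 12 were kept, 3 were up (25.0%, against 31.5% of all genes) and 0 were down (against 5.62%), with a median of 0.43. Irak3, the IRAK relative that blocks release of IRAK1 and IRAK4 from MyD88, rose from 44.2 to 441 RPKM. Its ratio of 9.97 was near those of Ikbke and Ticam2, and in the exosome library its RPKM was above that of every member. Tnip1, a partner of the ubiquitin editor A20, rose from 53.0 to 223 RPKM, and Socs3 rose 3.27-fold. The genes for A20 (Tnfaip3, 40.2 and 75.8 RPKM) and TOLLIP (21.5 and 24.4 RPKM) were within 2-fold.

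Genes listed as outputs of the relay were read in the same way, and whether the relay drove them here was not tested. Of 13 NF-κB target genes, 11 were kept, 5 were up (45.5%, against 31.5% of all genes) and 0 were down (against 5.62%). Their median of 0.50 was not above the 0.53 of all genes kept. Il12a rose from 2.44 to 55.3 RPKM, and Tnf, Ccl3, Nfkbia and Il1b rose 3.12-fold, 2.27-fold, 2.16-fold and 2.11-fold. Ccl3, Nfkbia and Il1b, at log2 fold changes of 1.18, 1.11 and 1.08, would not pass the limit with the median of all genes removed. Ptgs2, at -0.64, would then pass it downward. The share up in this list thus depends on the scaling. Of 10 interferon output genes, 8 were kept, 5 were up (62.5%, against 31.5% of all genes) and 0 were down (against 5.62%). The median of 1.71 was the highest of the 6 lists. Ifit2 rose from 2.59 to 16.0 RPKM, Ifit3 from 6.19 to 32.8, Isg15 from 13.9 to 65.8 and Ifit1 from 10.8 to 44.0 RPKM. Rsad2 rose 2.63-fold. Ifnb1, the interferon gene itself, was at 0.04 and 0.03 RPKM and was not kept. Cxcl10, Ccl5 and Irf1, which were listed as interferon output, stood lower with exosomes within the 2-fold limit. With the same median removed, Rsad2, at a log2 fold change of 1.40, would not pass the limit. Ccl5, at -0.92 (counting interval -1.57 to -0.28), would pass it downward. The shares of the interferon list thus depend on the scaling as well.

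**Figure D4:**
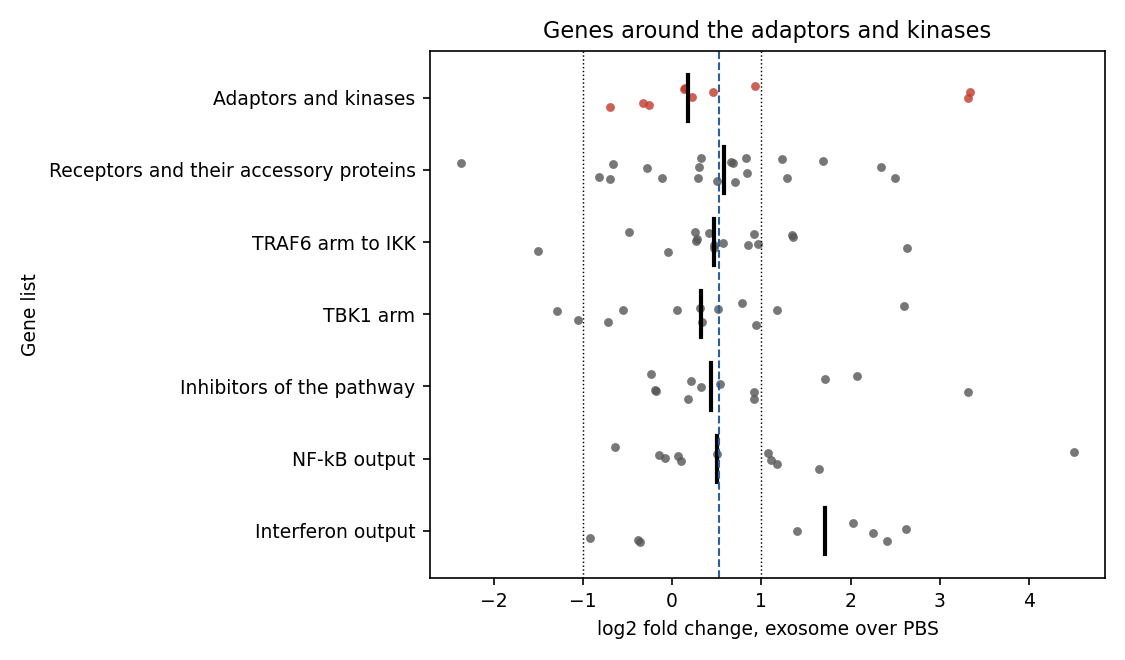
log2 fold change of exosome over PBS for the 10 adaptors and kinases (red) and for the kept genes of 6 lists (grey), with a bar at each median, the 2-fold limits dotted and the median of all genes kept (0.53) dashed. The adaptors and kinases have the lowest median (0.18) and hold a pair of genes above 3, and the interferon output has the highest median (1.71).

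Markers of cell types were read in the same 2 libraries. Of 12 neutrophil markers, 11 were down, where 5.62% of all genes kept were, and their summed RPKM was 84709 in PBS and 30490 with exosomes. Of 14 monocyte and macrophage markers, 7 were kept, 5 were up and 0 were down, where 31.5% of all genes kept were up. The summed RPKM of the 14 was 166 in PBS and 480 with exosomes. Most of that sum came from Csf1r (58.1 and 153 RPKM), Emr1 (20.9 and 152 RPKM) and Cd68 (83.9 and 146 RPKM). Ms4a7 rose from 1.02 to 16.8 RPKM and C1qc from 0.27 to 3.79 RPKM, Mertk, Mrc1 and Cd163 were at or below 0.48 RPKM, and none of the 14 was at 0 in either library. B cell markers summed to 108 and 66.9 RPKM and T cell markers, nearly all of it Cd3d, to 57.8 and 7.31 RPKM. The neutrophil list had by far the highest sum in both libraries, most of it from S100a8 (32823 and 14382 RPKM) and S100a9 (43059 and 13834 RPKM). Ly6g, the gene of the sort marker Ly-6G, fell from 287 to 56.2 RPKM. Sums over different lists do not measure the purity of the cells. Fewer cells of a type and less RNA per cell cannot be told apart in bulk RNA, and the part of cell composition in the Ikbke and Ticam2 values was not tested.

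The call of the pair did not rest on the scaling. Ikbke had a log2 fold change of 2.80 to 3.39 over the 8 other scalings, pseudocounts and filters, and Ticam2 one of 2.21 to 3.36 over the 7 that kept it. The signs of small changes did depend on it. With the median of all genes removed, the values of Myd88, Irak4, Irak2 and Tbk1 became negative, and Tirap passed the 2-fold limit downward at -1.23.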

How the data were processed

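Bone marrow neutrophils treated with PBS or tumor exosomes were sequenced, with 1 library for each. According to the study's methods, TruSeq mRNA libraries were read on a HiSeq system, reads were trimmed by base quality, and the authors deposited RPKM values per feature from CLC Genomics Workbench. The submitters' processing notes name the build mm10. The annotation, the treatment of shared reads, the strand setting and any scaling between libraries are not given in the sources used here.

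Deposited RPKM values were used with no pseudocount. Genes at 0.25 RPKM or more in both libraries (9698) were kept, and log2 ratios were called at 2-fold. RPKM is not a count, so no count model was fitted. Mapped reads were estimated from features below 0.01 RPKM that stand for a single read, with transcript lengths of GENCODE M21 (GRCm38); 191 of 918 such features gave one total for PBS and 215 of 1064 for exosomes. The depth ratio of 1.20 was also read without lengths, from 204 of 415 features. Sequences came from RefSeq (GRCm38.p6) and GENCODE. Scripts ran in Python 3.11.15 with scipy 1.17.1 and were tested on simulated reads made with the same lengths, which cannot check the choice of length. The members and lists were chosen with earlier results of these data known. From each list, genes past 4-fold were named by rule, at most 4, and the other list genes in the text were named after their values were seen. Alternatives were 4 scalings, 2 pseudocounts, 2 filters and 2 fold limits.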

Additional observations from a re-analysis of the deposited data

How the results depend on the processing

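No paired analysis was possible because each group holds 1 library, and leaving out a library leaves no comparison. Under median centring and trimmed mean centring, 1 member (Tirap) was down in place of 0, the median of the members was -0.34 and -0.36, all genes up were 1634 and 1594, all genes down 1282 and 1322, and the pathway lists together had 14 up and 12 down under each, in place of 23 and 4. Scaling without S100a8 and S100a9 moved the members' median to 0.0091. A pseudocount of 1 left 1976 genes up. A filter of 1 RPKM in both libraries removed Ticam2, so 1 member was up, and left 1958 genes up. A filter at any RPKM above 0 raised the genes down to 1436. At a limit of 1.5-fold 1 member was down, 4586 and 1092 of all genes and 35 and 10 of the pathway genes were up and down, and at 4-fold 826 and 111 of all genes and 11 and 1 of the pathway genes were. With TPM and a pseudocount of 0.25 no count of calls moved by over 1.5 times. The cause was not tested for any of these shifts, beyond what each setting does by its construction. Ticam2 rested on about 189 estimated reads in PBS, and a pseudocount of 1 moved its log2 fold change from 3.32 to 2.21.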
